A study of Mus musculus with 18 samples.

Results

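Genes named Tex (testis expressed) were followed in round spermatids of wild-type mice and of mice with a changed GRTH gene. The members were all genes of the deposited count table whose symbol is Tex followed by a digit, with pseudogenes left out, which gave 38 of 54232 genes. No pseudogene matched the pattern, so 0 genes were left out. All 38 are protein coding, 8 lie on the X chromosome and 30 on autosomes, and all 38 passed the filter on low counts. The name records where a gene was first found to be expressed and does not by itself mark a common ancestor or a shared function, although a few members, such as the Tex13 genes, are related by sequence. Round spermatids (RS) are haploid cells that have finished meiosis and have not yet begun to elongate. They transcribe many genes whose proteins are used only later, when the tail is built, the nucleus is compacted and the sperm surface matures. Some Tex genes belong to those late steps, others act in meiosis or in the defence of the germline genome, and a few serve general functions in most cells.

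RNA of RS was sequenced from 18 libraries, 6 for each genotype. RS came from testes of mice 75 to 85 days old, by settling through a BSA gradient after enzymatic digestion. WT mice carried the intact GRTH gene (symbol Ddx25), which encodes a testis-specific DEAD-box RNA helicase. KO mice lacked GRTH. KI mice carried the human GRTH gene with a missense mutation, and their germ cells lack phosphorylated GRTH. The strain background was not given in the sources used here. Neither the labels nor the methods tie a library to a single mouse, so the p-values measure the spread between these libraries, which may be technical. The libraries held between 18766971 and 26776555 counts on genes, with a median of 22408300 in WT, 22862564 in KO and 22711889 in KI. Levels are given as normalized CPM, in which each count is scaled to its library's total after TMM normalization. Levels compared between genes are given per length as FPKM, the normalized CPM per kilobase of exon.

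The mutated gene was read first as a check of the labels. Ddx25 stood at 567 ± 24.7 CPM in WT and at 70.0 ± 14.8 CPM in KO (SD, n = 6). In KI, 5 libraries held 0.0456 to 0.519 CPM of mouse Ddx25 and the library labelled KI 4 held 56.9 CPM, which lies inside the KO range of 47.7 to 90.9 CPM. Over all genes, KO 2 and KI 4 were also the closest pair of the 18 libraries, with a median squared difference of 1.59 times counting noise. The next closest pairs were KO 4 with KO 5 (2.05), WT 1 with WT 2 (2.14), KI 1 with KI 2 (2.61), KI 3 with KI 5 (2.73), WT 3 with WT 4 (2.86) and WT 5 with WT 6 (3.24). Comparisons with KI were therefore also made without the library labelled KI 4. Counts over all members and the log2 fold changes of members called in KI are given both ways.

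Against WT, 17 of the 38 Tex genes changed in KO. A test against no change (edgeR quasi-likelihood, Benjamini-Hochberg adjusted p under 0.1 over 21058 genes) called 6 higher and 11 lower, where 16.4% and 13.5% of all genes tested were called higher and lower. The 6 higher members were Tex12, Tex13b, Tex13c2, Tex14, Tex16 and Tex19.1. The 11 lower members were Tex13a, Tex28, Tex30, Tex35, Tex37, Tex43, Tex44, Tex46, Tex47, Tex48 and Tex50. A test for a change greater than 1 on the log2 scale (edgeR glmTreat, a more than 2-fold change) called Tex13c2 higher and Tex37 and Tex46 lower, where 0.598% of all genes were called higher and 1.13% lower. The median log2 fold change was -0.07 over the members and 0.03 over all genes tested, and 18 members lay above 0 and 20 below. Libraries did not overlap between KO and WT for 5 higher and 8 lower members, against 6.62% and 6.44% of all genes. Because whole RS isolates were sequenced, fewer cells of a stage and less RNA per cell cannot be told apart in any of these values.

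Compared with WT, 19 of the 38 members changed in KI. The same test called 3 higher (Tex13c2, Tex14 and Tex16) and 16 lower, where 16.1% and 15.4% of all genes were called higher and lower. The lower members were the 11 of the KO comparison and in addition Tex21, Tex26, Tex36, Tex38 and Tex45. Without the library labelled KI 4, 3 members were higher and 17 lower, Tex24 being the addition, where the shares of all genes were 14.5% and 15.8%. Past 1 on the log2 scale, Tex13c2 was higher and Tex37 and Tex46 were lower, where 0.522% and 1.43% of all genes were called. Without KI 4, Tex28 joined the lower members, and the shares of all genes were 0.452% and 1.51%. The median log2 fold change over the members was -0.28 and over all genes 0.05, and without KI 4 these were -0.31 and 0.05. Libraries of KI and WT did not overlap for 2 higher and 10 lower members, against 5.97% and 7.91% of all genes. Leaving KI 4 out gave 2 higher and 12 lower members, against 6.93% and 9.46%. When each close pair of libraries within a genotype was counted as 1 library and KI 4 was left out, Tex46 passed 1 on the log2 scale in both genotypes (adjusted p = 0.0988 in KO and 0.0408 in KI), and Tex37 (0.107 and 0.175) and Tex13c2 (0.381 and 0.489) did not. In the same fit, which rests on fewer libraries, calls against no change were lost for Tex12, Tex13a, Tex14 and Tex43 in KO (adjusted p = 0.125 to 0.357), and for Tex13a, Tex14, Tex16, Tex21, Tex26, Tex36, Tex38 and Tex45 in KI (adjusted p = 0.178 to 0.415). Both comparisons used the same WT libraries, so that the 11 members lower in both and the 3 higher in both are not independent observations.

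**Figure D1:**
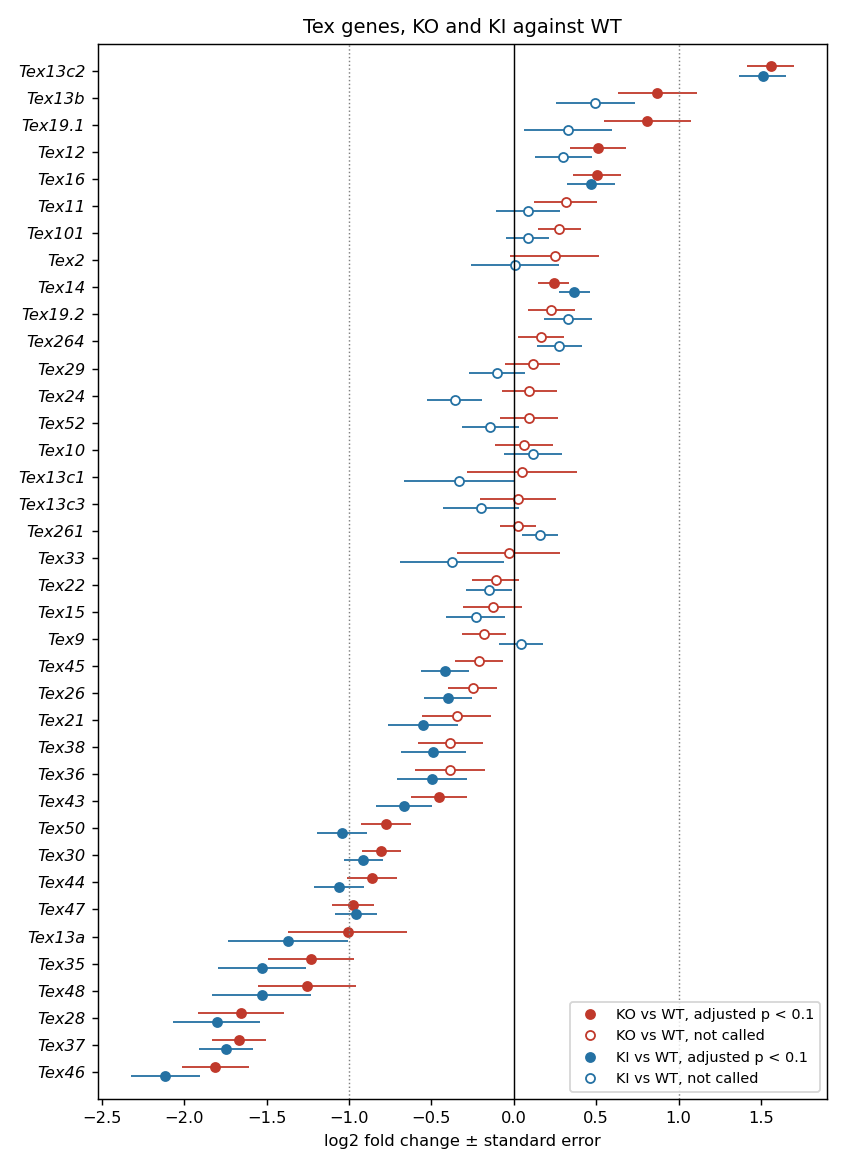
Log2 fold changes (± standard error, edgeR, horizontal axis) of the 38 Tex genes in KO (red) and KI (blue) against WT, with genes ordered by their value in KO. Filled points passed the test against no change and dotted lines mark a log2 fold change of 1 in either direction. Tex46, Tex37 and Tex28 lie farthest to the left and Tex13c2 farthest to the right in both genotypes.

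Tex46 (GRCm38, chr4:136610437-136613226, + strand) had the largest fall among the members. Its levels in WT ran from 15.4 CPM over a median of 17.999 to 20.1 CPM. In KO they were 2.56, 5.69 and 6.73 CPM (lowest, median and highest), and in KI 2.56, 3.95 and 5.97 CPM. Every KO and KI library lay below every WT library, with KO 1 lowest in KO and the library labelled KI 4 highest in KI. The log2 fold change was -1.81 ± 0.20 (SE) in KO (adjusted p = 9.30e-07, and 0.0218 past 1 on the log2 scale). In KI it was -2.12 ± 0.21 (adjusted p = 9.76e-08 and 0.00104), and -2.25 without KI 4 (adjusted p = 8.54e-08 and 3.55e-04).

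Tex37 (chr6:70913087-70918927, - strand), which encodes a protein bound to the microtubules of the sperm tail, fell by a like amount. WT libraries held 46.6, 52.9 and 65.2 CPM, with WT 1 and WT 2 the highest. KO libraries held 10.7, 18.8 and 21.3 CPM and KI libraries 12.7, 15.9 and 20.6 CPM. No mutant library reached the lowest WT library, and KO 3 and KI 3 were the lowest of their groups. The log2 fold change was -1.67 ± 0.16 in KO (adjusted p = 1.38e-07, and 0.0183 past 1) and -1.75 ± 0.17 in KI (adjusted p = 5.79e-08 and 0.00576). Without KI 4 it was -1.83 in KI (adjusted p = 9.34e-08, and 0.00317 past 1).

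Tex28 (chrX:74150944-74167838, - strand), an X-linked gene, was among the least abundant members, so that its values rest on few counts. WT libraries held 1.47, 1.83 and 2.10 CPM (31 to 46 counts). KO libraries held 0.260, 0.575 and 0.872 CPM (6 to 17 counts), and KI libraries 0.234, 0.504 and 0.804 CPM (5 to 19 counts). WT did not overlap with KO or KI, while KO and KI overlapped, and within KI the library labelled KI 4 was highest. With log2 fold changes of -1.66 ± 0.26 in KO (adjusted p = 7.03e-05) and -1.80 ± 0.26 in KI (adjusted p = 2.42e-05), Tex28 changed in both genotypes. It did not pass the test past 1 with all libraries (adjusted p = 0.399 in KO and 0.134 in KI), while it did in KI without KI 4 (log2 fold change -1.98, adjusted p = 0.0443). With close pairs also summed it did not (log2 fold change -1.94, adjusted p = 0.590).

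Tex35 (chr1:157099139-157108680, - strand) was the most abundant member in WT, at 216 ± 56.4 FPKM. In CPM, WT libraries ran from 173 over 228 to 306, with WT 1 and WT 2 above 300 CPM. KO libraries ran from 29.8 in KO 3 over 112 to 139 in KO 1, and KI libraries from 59.5 over 84.1 to 103. Thus WT did not overlap with either mutant, although KO libraries differed 4.66-fold among themselves. Its log2 fold change was -1.23 ± 0.26 in KO (adjusted p = 0.00146), -1.53 ± 0.26 in KI (adjusted p = 1.71e-04) and -1.50 in KI without KI 4 (adjusted p = 6.12e-04).

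Tex48 (chr4:63607089-63622428, - strand) had the same lowest and highest KO and KI libraries as Tex35. Its WT libraries held 65.4, 82.0 and 110 CPM, its KO libraries 9.07 (KO 3), 37.0 and 68.1 CPM (KO 1), and its KI libraries 19.3, 31.6 and 37.1 CPM. KO 1 lay inside the WT range and the KI libraries lay below it. The log2 fold change was -1.25 ± 0.30 in KO (adjusted p = 0.00355) and -1.53 ± 0.30 in KI (adjusted p = 5.85e-04), and -1.48 without KI 4 (adjusted p = 0.00189).

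**Figure D2:**
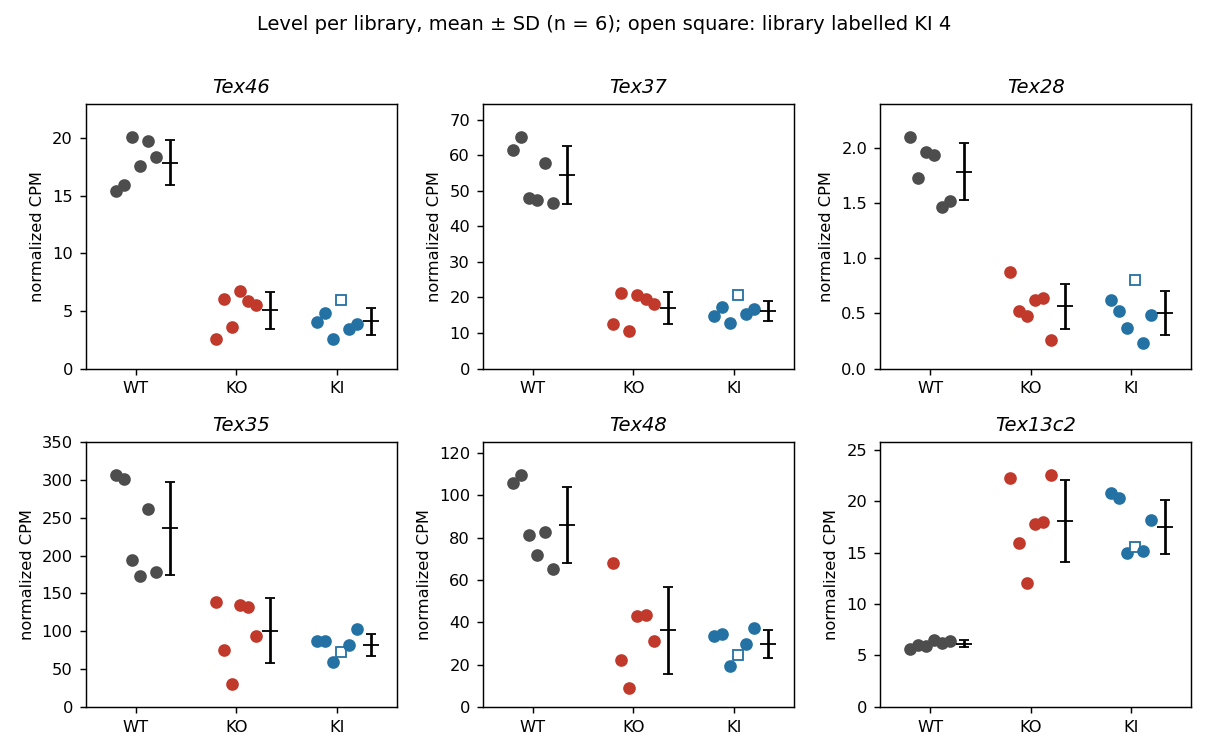
Normalized CPM (vertical axes from 0) of Tex46, Tex37, Tex28, Tex35, Tex48 and Tex13c2 in each library of WT, KO and KI, with the mean ± SD of 6 libraries beside the points. The open square is the library labelled KI 4. WT lies above both mutants for the members that fell, apart from KO 1 for Tex48, and below both mutants for Tex13c2.

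The promoters of these members are shown because those of Tex46, Tex37, Tex35 and Tex48 hold the same short element. Promoters were taken from RefSeq (GRCm38.p6) and matched 31 of the 38 members by symbol. The table holds 32851 windows, each from 250 bases before to 50 bases after a start. The letters TGACCT on either strand (AGGTCA on the other), which are the half-site of several nuclear receptors, stood in 16.3% of all windows and in 15 of the 36 windows of members. With a gene counted once if any of its windows held the letters, they stood in 18.1% of 27025 genes and in 12 of the 31 members. They stood in 6 of the 9 lower members in KO with a promoter (Tex35, Tex37, Tex44, Tex46, Tex47 and Tex48), and in 6 of the 22 others (Tex16, Tex29, Tex33, Tex38, Tex45 and Tex261). This element was picked after its counts were seen, as 1 of 13 searched, so the counts are a description. In the 250 bases before the start, written 5′ to 3′ in the direction of the gene with the half-site in capitals, Tex46 (chr4:136610187-136610436, + strand) held it 221 bases before the start. Tex37 (chr6:70918923-70919172, - strand) held it 40 bases before the start. Tex35 (chr1:157108681-157108930, - strand, the farthest upstream of 3 listed starts) held it 27 bases before, and Tex48 (chr4:63622434-63622683, - strand, the farther upstream of 2 listed starts) 78 bases before. Tex28 (chrX:74167839-74168088, - strand) is printed for contrast and holds no match.
Tex46: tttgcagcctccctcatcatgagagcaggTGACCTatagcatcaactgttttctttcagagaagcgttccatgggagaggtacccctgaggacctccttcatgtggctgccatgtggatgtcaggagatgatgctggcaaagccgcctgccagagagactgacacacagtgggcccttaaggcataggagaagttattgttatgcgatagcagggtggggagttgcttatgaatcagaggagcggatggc
Tex37: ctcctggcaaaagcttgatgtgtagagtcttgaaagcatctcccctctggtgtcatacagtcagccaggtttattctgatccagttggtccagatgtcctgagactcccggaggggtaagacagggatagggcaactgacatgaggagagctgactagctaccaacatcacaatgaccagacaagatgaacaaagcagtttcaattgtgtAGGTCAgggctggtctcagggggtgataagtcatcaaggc
Tex35: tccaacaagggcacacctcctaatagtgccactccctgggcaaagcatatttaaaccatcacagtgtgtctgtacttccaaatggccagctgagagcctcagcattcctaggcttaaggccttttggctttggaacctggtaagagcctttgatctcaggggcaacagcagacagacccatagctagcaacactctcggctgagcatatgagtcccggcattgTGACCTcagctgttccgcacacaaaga
Tex48: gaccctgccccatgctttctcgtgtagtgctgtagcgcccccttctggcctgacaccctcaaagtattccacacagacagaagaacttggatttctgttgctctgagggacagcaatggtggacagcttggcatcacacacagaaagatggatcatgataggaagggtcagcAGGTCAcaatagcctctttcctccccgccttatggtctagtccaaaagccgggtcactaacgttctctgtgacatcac
Tex28: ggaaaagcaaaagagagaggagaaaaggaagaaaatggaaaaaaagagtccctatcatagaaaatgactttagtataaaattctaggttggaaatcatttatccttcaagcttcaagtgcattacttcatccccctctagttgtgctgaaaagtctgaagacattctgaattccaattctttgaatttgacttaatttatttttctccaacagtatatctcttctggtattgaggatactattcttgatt

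Other promoter elements were searched in the same windows, with each gene again counted once. GTTGCC, the core of the X-box read by RFX factors, stood in 6 of the 31 members and in 14.1% of all genes, and GTTGCCATGG, a longer form of the X-box that contains it, in 1 member (Tex33) and 0.633%. The cAMP response element was searched as TGACG (5 members, 23% of genes), TGACGT (3 members, 8.37%) and TGACGTCA (0 members, 2.03%), each longer form overlapping the shorter. ATTGTT, a SOX core, stood in 5 members and 12.2% of genes, and CCATTGTTC, which contains it, in 0 members and 0.303%. TATAAA stood in 3 members (Tex10, Tex19.1 and Tex28) and 15.7% of genes, CCAAT in 9 and 41.1%, GGGCGG in 9 and 38.2%, CACGTG in 3 and 8.09%, and CGGAAG in 5 and 18.8%. A match in these windows is a run of letters and was not tested for binding.

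The remaining lower members fell by less. Tex44 stood at 72.7, 95.7 and 110 CPM in WT (lowest, median and highest), 35.0, 53.4 and 61.1 in KO and 38.1, 41.1 and 59.2 in KI. Tex47 stood at 68.3, 87.9 and 96.2 CPM in WT, 32.8, 43.4 and 51.5 in KO and 35.9, 42.5 and 52.4 in KI. Tex50 stood at 28.4, 34.9 and 40.8 CPM in WT, 15.4, 20.1 and 25.1 in KO and 13.1, 16.05 and 23.2 in KI. In none of these genes did a mutant library reach the WT range. On the log2 scale, fold changes (KO, then KI) were -0.86 and -1.06 for Tex44, -0.97 and -0.96 for Tex47, and -0.78 and -1.04 for Tex50, each with a standard error of 0.13 to 0.15, and adjusted p-values lay between 6.57e-06 (Tex47 in KO) and 6.07e-04 (Tex50 in KO). Without KI 4 the values in KI were -1.16, -0.94 and -1.16. Tex47 and Tex50 lie opposite Zfp804b and Ankrd45, and counting used the strand.

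Genes of the Tex13 group moved in different directions. These 5 genes lie on the X chromosome and are related by sequence, so reads of near-identical stretches may be lost or shared among them. Tex13c2 (chrX:42489691-42491524, + strand) rose: WT libraries were within 5.67 to 6.55 CPM (median 6.12), KO libraries were at 12.1, 17.8 and 22.5 CPM, and KI libraries at 14.97, 16.9 and 20.7 CPM. The lowest mutant library thus stood well above the highest WT library, and WT 1 to WT 6 differed by no more than 1.15-fold. The log2 fold change was 1.56 ± 0.14 in KO (adjusted p = 4.55e-08, and 0.0253 past 1) and 1.51 ± 0.14 in KI (adjusted p = 5.87e-08 and 0.0441). Without KI 4 it was 1.54 (adjusted p = 1.32e-07 and 0.0418). In KI the call past 1 was lost when WT 1, KI 1 or KI 2 was left out.

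Tex13a fell, at 29.6, 40.7 and 53.1 CPM in WT, 2.94 (KO 3), 23.2 and 36.2 (KO 1) in KO, and 9.74, 17.96 and 20.6 in KI. KO libraries differed 12.3-fold, the widest spread of any member within a genotype, and overlapped with WT, whereas the KI libraries all lay below WT. Its log2 fold change was -1.01 ± 0.36 in KO (adjusted p = 0.0468), a call lost without KO 2 and with close pairs summed (adjusted p = 0.148), and -1.37 ± 0.36 in KI (adjusted p = 0.00772, and 0.210 with close pairs summed), and -1.26 without KI 4 (adjusted p = 0.0203). Tex13b rose in KO, from 1.84, 2.95 and 3.50 CPM in WT to 3.87, 5.10 and 6.81 CPM, with no overlap (log2 fold change 0.87 ± 0.24, adjusted p = 0.0100). In KI it reached 1.87, 3.87 and 6.43 CPM and was not called (0.50, adjusted p = 0.142, and 0.31 without KI 4, adjusted p = 0.363). It was called in KI without WT 3, WT 6 or KI 5. Tex13c1 and Tex13c3 passed in neither genotype, with log2 fold changes of 0.05 and 0.03 in KO, whose sign turned in other settings, and -0.33 and -0.20 in KI. Without KI 4 the values in KI were -0.26 and -0.45 (edgeR adjusted p = 0.649 and 0.124). Tex13d was not matched by symbol in the table. The X-linked members as a whole had a median log2 fold change of 0.18 in KO, with 3 higher and 2 lower. Over 710 genes of the X chromosome the median was 0.20, and 29.7% were called higher and 14.6% lower. The 30 autosomal members had a median of -0.15, with 3 higher and 9 lower, beside 0.02 over 20145 autosomal genes, of which 16.1% were called higher and 13.5% lower. In KI, 2 X-linked members were higher and 2 lower (median -0.06, and -0.16 without KI 4), while 1 autosomal member was higher and 14 lower (median -0.37, and with 15 lower -0.39 without KI 4). In KI, 23.5% of all X-linked genes were called higher and 17.5% lower, and of autosomal genes 16.01% and 15.4%, so that the X-linked counts lie near their background.

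Members that act in meiosis, in bridges between germ cells or on the germline genome number 6. Of these, 3 were higher in KO (Tex12, Tex14 and Tex19.1), where 16.4% of all genes were called higher, and 1 in KI with or without KI 4 (Tex14), a share near the 16.1% and 14.5% of all genes. None was called lower, where 13.5% (KO) and 15.4% (KI) of all genes were, which is fewer than 1 in 6. Tex14, which is required for the bridges that join germ cells, varied least of all members within WT, at 158, 164 and 177 CPM. KO libraries stood at 181, 195 and 213 CPM and KI libraries at 197, 211 and 240 CPM, all above WT. The changes were small, with log2 fold changes of 0.24 ± 0.09 in KO (adjusted p = 0.0666), 0.37 ± 0.09 in KI (adjusted p = 0.00590) and 0.39 without KI 4 (adjusted p = 0.00706). In KO the call was lost in 7 of 18 fits that left out a library, namely WT 1, WT 2, WT 3, WT 4, KO 2, KO 3 or KO 6. It was also lost with the replicate number as a block (adjusted p = 0.104), with close pairs summed (0.357), with DESeq2 size factors and with no filter on low counts. In KI it was lost with close pairs summed (adjusted p = 0.178). Several small RNA genes lie within Tex14 on its strand. Of the other proteins of the intercellular bridge, 3 of 5 genes were higher in KO, in KI and in KI without KI 4, where 16.4%, 16.1% and 14.5% of all genes were. These were Kif23, a kinesin of the central spindle, Cep55, a midbody protein, and Anln, which binds actin. Their mean levels in WT, KO and KI were 83.9 ± 19.3, 133 ± 19.4 and 151 ± 38.0 CPM for Kif23, and 37.0 ± 7.84, 58.2 ± 8.09 and 65.2 ± 7.65 CPM for Cep55.

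Tex12, a component of the central element of the synaptonemal complex, stood at 2.38, 3.44 and 4.09 CPM in WT and 4.11, 4.86 and 5.59 CPM in KO, with no overlap (log2 fold change 0.51 ± 0.17, adjusted p = 0.0328). In KI it was at 3.04, 3.92 and 6.05 CPM, the highest being KI 4, and was not called (0.30, adjusted p = 0.218, and 0.16 without KI 4, adjusted p = 0.513). Among 10 other genes of meiotic synapsis that were tested, Sycp3, Hormad1 and Dmc1 were higher and Syce2 lower in KO, and Sycp3 and Dmc1 higher and Syce2 and Syce3 lower in KI. Without KI 4, Dmc1 was no longer called. The shares of all genes called higher and lower were 16.4% and 13.5% in KO, 16.1% and 15.4% in KI, and 14.5% and 15.8% without KI 4. The calls in KI and the lower call in KO thus lie near these shares. Tex11, an X-linked gene of meiotic recombination, stood at 7.96, 10.05 and 11.8 CPM in WT and 9.35, 12.7 and 14.3 CPM in KO and was called in neither genotype (log2 fold change 0.31 in KO, adjusted p = 0.270, and 0.08 in KI, adjusted p = 0.808, which turned to -0.07 without KI 4).

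Tex19.1 and Tex19.2 are neighbours 27466 bases apart on chromosome 11 that restrain transposons in germ cells. Tex19.1 stood at 2.28, 2.94 and 3.82 CPM in WT, 3.20, 5.35 and 7.20 CPM in KO, and 1.68, 3.49 and 6.56 CPM in KI. It was called in KO and not in KI (log2 fold change 0.81 ± 0.26, adjusted p = 0.0296, against 0.33, adjusted p = 0.414 in KI and 0.09 without KI 4). KO and WT overlapped, and the highest libraries of the mutants were KO 2 and KI 4. Tex19.2 was at 6.83 ± 1.35, 8.004 ± 1.06 and 8.60 ± 1.18 CPM (SD, n = 6) in WT, KO and KI and passed in neither in edgeR (log2 fold change 0.33 in KI, adjusted p = 0.101). It was called higher in KI by DESeq2 (adjusted p = 0.0773), with DESeq2 size factors, with at least 10 counts in every library, with only the genotypes compared, and without WT 5, WT 6, KO 3 or KI 1. Both genes are close in sequence, so their counts may share uncertainty. Tex15, which acts in transposon silencing through piRNAs, was at 331 ± 77.4, 303 ± 40.8 and 282 ± 77.6 CPM and was called in neither genotype. Among 9 other genes of transposon silencing, Piwil2, Spocd1 and Ubr2 were higher and Dnmt3l lower in KO, and Piwil2 and Spocd1 higher and Dnmt3l lower in KI, with or without KI 4. Of all genes, 16.4% were called higher and 13.5% lower in KO, 16.1% and 15.4% in KI, and 14.5% and 15.8% without KI 4. The calls in KI and the lower call in KO thus lie near their background. Tex16, an X-linked gene without a role stated here, rose from 8.05, 9.70 and 11.5 CPM in WT to 12.1, 13.8 and 15.3 CPM in KO, without overlap, and to 9.77, 12.8 and 17.99 CPM in KI, with overlap (log2 fold change 0.51, adjusted p = 0.0135, and 0.47, adjusted p = 0.0203, or 0.37 without KI 4, adjusted p = 0.0619). Gm45194 and Gm14900 overlap Tex16 on its strand.

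**Figure D3:**
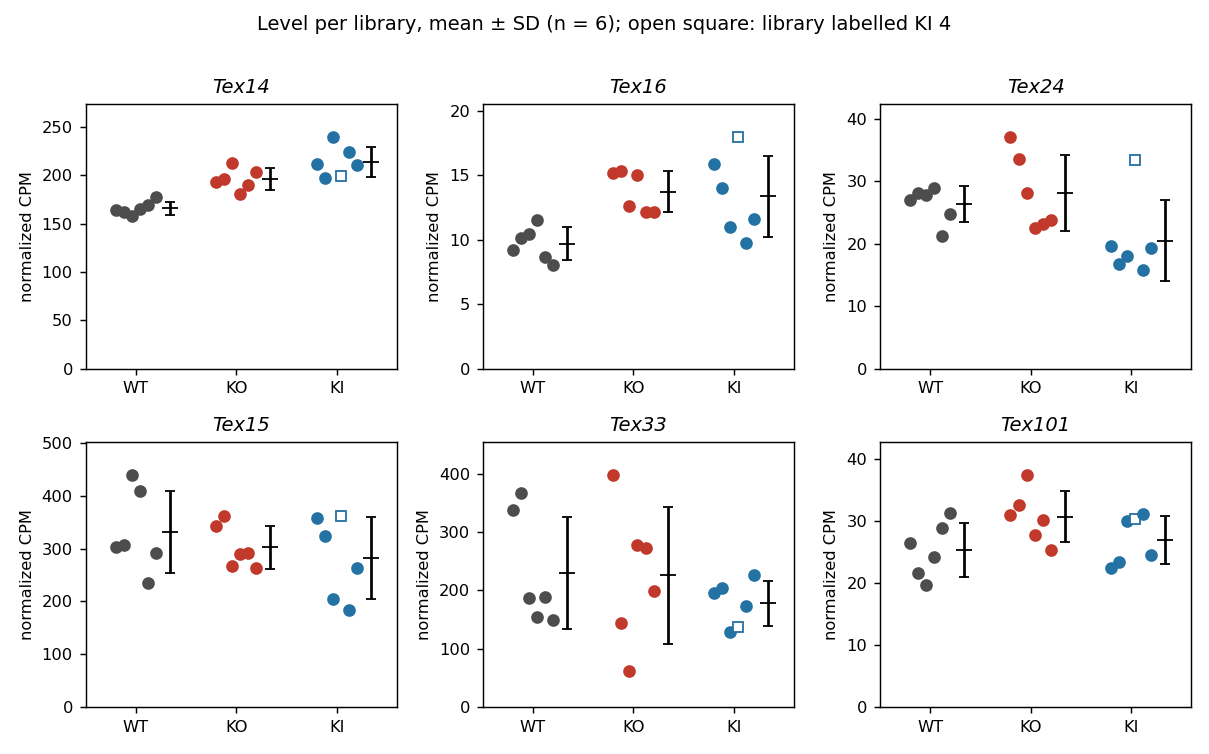
Normalized CPM (vertical axes from 0) of Tex14, Tex16, Tex24, Tex15, Tex33 and Tex101 in each library of WT, KO and KI, with the mean ± SD of 6 libraries beside the points. The open square is the library labelled KI 4, which stands at 33.4 CPM for Tex24, above the 5 other KI libraries at 15.8 to 19.6 CPM, whereas all KO and KI libraries lie above WT for Tex14.

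Members whose proteins bind microtubules of the sperm tail were lower or not called. Besides Tex37, this group holds Tex33, Tex36, Tex43 and Tex45. In KO, 2 of the 5 were lower (Tex37 and Tex43), and in KI 4 of 5 with or without KI 4 (Tex36, Tex37, Tex43 and Tex45), where 13.5%, 15.4% and 15.8% of all genes were called lower in KO, KI and KI without KI 4. The group had median log2 fold changes of -0.39, -0.50 and -0.64 in KO, KI and KI without KI 4. Tex43 stood at 101, 125 and 180 CPM in WT, 71.4, 108 and 116 CPM in KO, and 60.3, 86.7 and 114 CPM in KI. Its log2 fold change was -0.45 ± 0.17 in KO (adjusted p = 0.0594), a call lost without WT 4, KO 3 or KO 6, and -0.67 ± 0.17 in KI (adjusted p = 0.00594, and -0.76 without KI 4). Tex36 was at 138 ± 49.98, 105 ± 23.5 and 97.6 ± 26.3 CPM, with WT 3 and WT 4 above the other WT libraries (log2 fold change -0.39, adjusted p = 0.202 in KO and -0.50, adjusted p = 0.0906 in KI). The call in KI held in 9 of 18 fits without a library and was lost, among others, without WT 3 or WT 4, as well as with no filter on low counts and with only the genotypes compared, and without KI 4 it was -0.64 (adjusted p = 0.0289). Tex45 was at 23.2 ± 4.03, 20.05 ± 4.11 and 17.4 ± 2.35 CPM (log2 fold change -0.42, adjusted p = 0.0398 in KI, lost without WT 2, and -0.47, adjusted p = 0.0296, without KI 4). Tex33, in the second place of the WT order, was at 231 ± 96.2, 226 ± 117 and 178 ± 38.5 CPM and differed 6.39-fold among KO libraries, with KO 1 highest and KO 3 lowest, and it was not called (-0.03 in KO, whose sign turned in other settings, and -0.37 in KI). Tex49 was not matched by symbol. Among 19 other genes for proteins of tail microtubules, most were called in neither genotype (median log2 fold change -0.08 in KO and -0.09 in KI). The called ones included Cfap53 and Saxo1 (higher) and Spaca9 (lower) in KO. In KI they included Cfap53 (higher) and Enkur and Spaca9 (lower), and Enkur was no longer called without KI 4. Of all genes, 16.4% were called higher and 13.5% lower in KO, 16.1% and 15.4% in KI, and 14.5% and 15.8% without KI 4. The calls of this list thus lie near or below these shares.

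Of the 2 surface and lipid-modification members, 1 (Tex38) was called lower in KI, where 15.4% of all genes were. Neither was called in KO, where 13.5% of all genes were called lower. The mutants were not shown to differ for Tex38 (log2 fold change of KI against KO -0.10, edgeR adjusted p = 0.967). Tex101, a lipid-anchored surface protein of germ cells that takes part in the maturation of ADAM3, was at 25.4 ± 4.39, 30.7 ± 4.15 and 26.9 ± 3.92 CPM in WT, KO and KI and was called in neither genotype, though it was in KO without WT 6 or KO 6 (log2 fold change 0.27, adjusted p = 0.140 with all libraries). Tex38, the partner of the palmitoyl transferase Zdhhc19, was at 76.0 ± 25.5, 58.2 ± 10.1 and 54.1 ± 15.04 CPM. It was called lower in KI (-0.49 ± 0.20, adjusted p = 0.0744, and -0.64 without KI 4, adjusted p = 0.0187) and not in KO (-0.38, adjusted p = 0.172), and in KI the call held in 12 of 18 fits without a library and was lost with only the genotypes compared. WT 3 and WT 4 again held the highest values. Zdhhc19 itself was lower in both, at 33.6 ± 5.68, 22.3 ± 4.05 and 19.5 ± 2.67 CPM. Of 9 genes of sperm surface maturation, 4 were lower in KO, in KI and in KI without KI 4 (Ace, a peptidase, Calr3, a chaperone of the testis, Prss37 and Zdhhc19). Of all genes, 13.5%, 15.4% and 15.8% were called lower in these comparisons. Tpst2 was called higher when KI 4 was left out, where 14.5% of all genes were.

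Among the 6 members with general functions, 1 was lower in both genotypes, a share near the 13.5% in KO and 15.4% in KI of all genes called lower. This was Tex30, a protein related to hydrolases, at 34.6, 38.3 and 44.1 CPM in WT, 19.4, 22.4 and 25.4 CPM in KO and 17.98, 18.7 and 27.1 CPM in KI, so that neither mutant overlapped with WT. Its log2 fold change was -0.81 ± 0.12 in KO (adjusted p = 3.08e-05) and -0.91 ± 0.12 in KI (adjusted p = 5.43e-06), and -1.004 without KI 4. Fragments in the stretch where Tex30 overlaps Gm29247 on its strand may have been left out. The other 5 passed in neither genotype with all libraries, and Tex264 was called higher in KI without WT 3, KI 3 or KI 5. Tex2, a lipid transfer protein of the ER, was at 404 ± 120, 480 ± 232 and 406 ± 111 CPM in WT, KO and KI, and in KO it ran from 196 CPM in KO 3 to 880 CPM in KO 1. Tex10, a member of the rixosome that acts in ribosome assembly, was at 194 ± 51.4, 202 ± 34.4 and 210 ± 45.5 CPM. Tex264, a receptor for autophagy of the ER, was at 38.0 ± 6.85, 42.6 ± 4.87 and 46.0 ± 8.19 CPM. Tex9, found at centriolar satellites, was at 126 ± 12.98, 111 ± 8.05 and 130 ± 30.2 CPM, and Tex261, an ER protein of vesicle export, at 44.0 ± 6.61, 44.7 ± 2.17 and 49.1 ± 5.79 CPM. Of 6 other ER-phagy receptors, Sec62 and Calcoco1 were higher and Retreg1, Ccpg1 and Atl3 lower in both genotypes, with Atl3 going from 613 ± 77.7 CPM in WT to 136 ± 33.8 in KO and 115 ± 22.3 in KI (log2 fold change -2.17 and -2.41). Over all genes, 16.4% were called higher and 13.5% lower in KO, and 16.1% and 15.4% in KI. Of 6 other rixosome genes, Las1l was higher in KO, which as 1 of 6 lies near the 16.4% of all genes called higher. Las1l and Mdn1 were higher in KI with or without KI 4, where 16.1% and 14.5% of all genes were.

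Of the members given no role here, Tex21 and Tex26 were lower in KI and were not called in KO. Tex21 was at 224 ± 37.0, 176 ± 62.0 and 152 ± 35.6 CPM in WT, KO and KI, and Tex26 at 42.4 ± 8.76, 35.6 ± 4.57 and 32.2 ± 6.63 CPM. Their log2 fold changes in KI were -0.55 (adjusted p = 0.0598, and -0.54 without KI 4) and -0.40 (adjusted p = 0.0508, and -0.50 without KI 4). Tex21 kept its call in 13 and Tex26 in 14 of 18 fits without a library, and the call of Tex26 was also lost with no filter on low counts. In KO, Tex21 was called without KO 1 and Tex26 without WT 6. Tex26 overlaps 4933425D22Rik on its strand. Tex22, Tex29 and Tex52 passed in neither comparison, and Tex24 is described with the comparison of KI with KO.

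**Figure D4:**
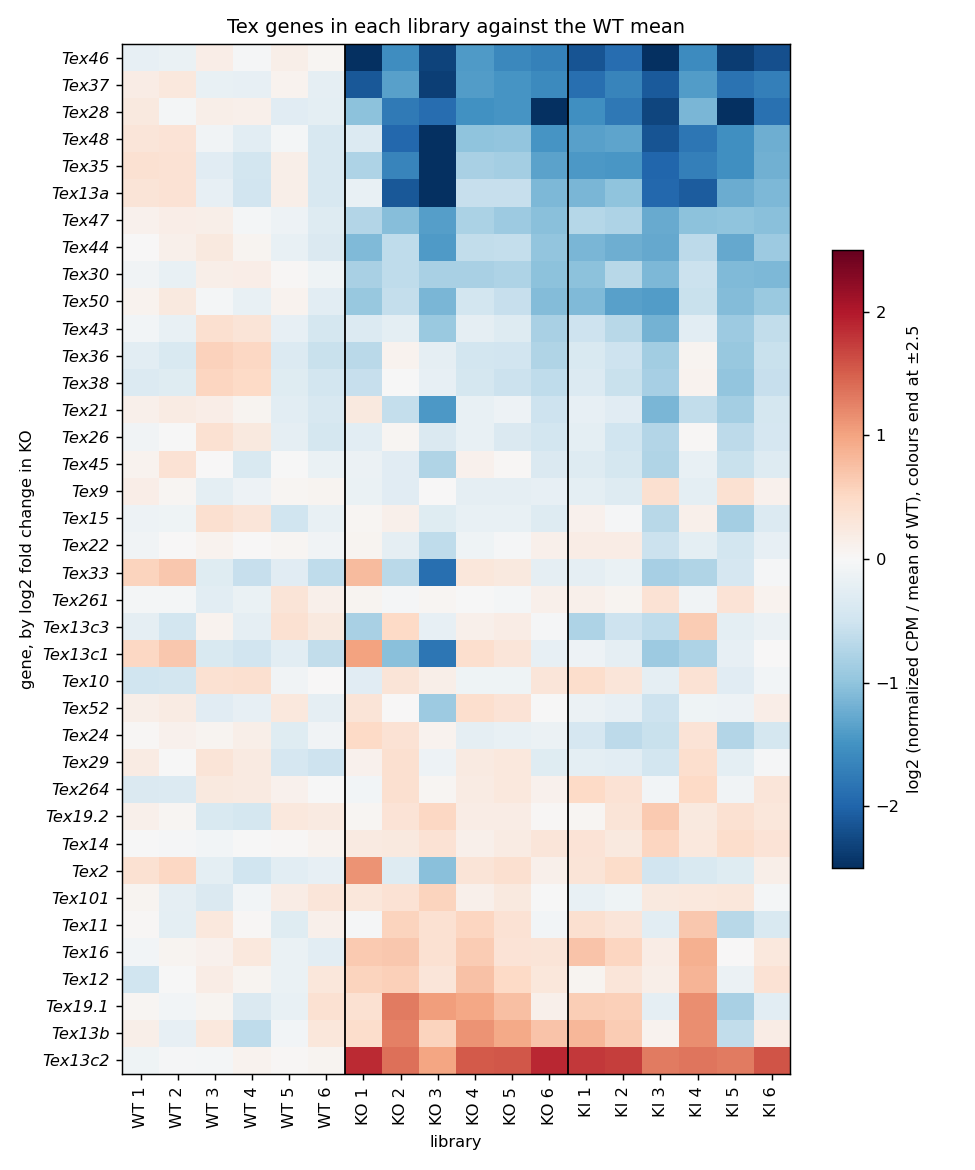
Log2 of normalized CPM relative to the mean of WT (colour, blue lower and red higher, ending at 2.5 in either direction) for the 38 Tex genes (rows, by log2 fold change in KO) in the 18 libraries (columns). The rows from Tex46 to Tex50 are blue in KO and KI and the row of Tex13c2 is red, and KO 3 is the bluest KO column for Tex48, Tex35 and Tex13a.

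In WT, members spanned a wide range of levels per length. The highest were Tex35 (216 FPKM), Tex33 (186), Tex43 (148), Tex36 (144), Tex48 (125), Tex38 (94.7), Tex21 (92.2) and Tex22 (79.6 FPKM), and the lowest were Tex28 (1.25) and Tex13b (1.02 FPKM). Of neighbours in that order, Tex30 and Tex101, Tex52 and Tex13c3, Tex13c3 and Tex13c2, and Tex16 and Tex19.1 were separated by more than their SDs, and no other pair was. Among these 8 leading members, Tex48, Tex35 and Tex43 fell in both mutants. Tex36, Tex38 and Tex21 were called lower in KI and not called in KO, and Tex33 and Tex22 were not called in either. Exon length ran from 683 to 9622 bases over the members with a median of 1800.5 bases.

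**Figure D5:**
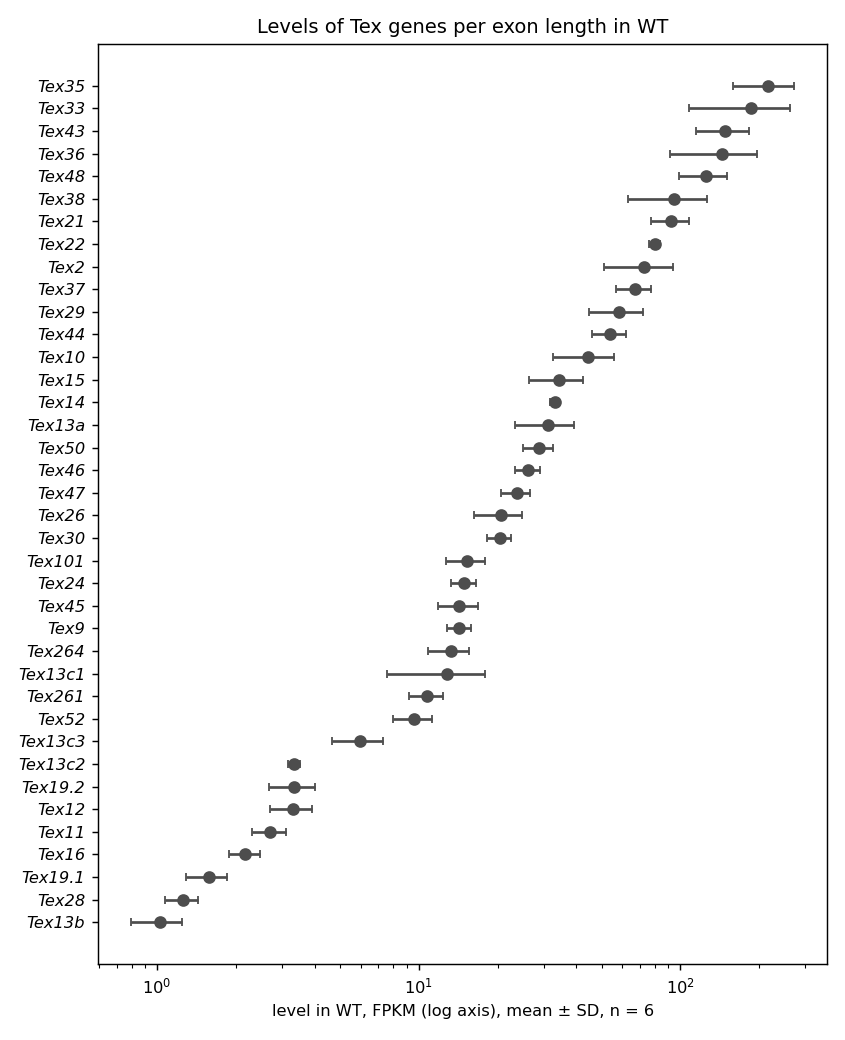
Mean level per exon length (FPKM, log axis) ± SD over the 6 WT libraries for the 38 Tex genes in order. Tex35 leads at 216 FPKM and Tex13b is last at 1.02 FPKM, and most neighbours overlap within their SDs.

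Within genotypes, the members did not vary alike. The ratio of highest to lowest library had a median of 1.60 over the members in WT, 1.67 in KO and 1.81 in KI, but it reached 2.47 in WT (Tex13c1), 12.3 in KO (Tex13a) and 3.90 in KI (Tex19.1). KO 3 was the lowest KO library for 16 members and KO 6 for 13, and KO 2 was the highest for 14 and KO 1 for 10. In KI, the library labelled KI 4 was the highest for 21 of 38 members and KI 3 the lowest for 18. WT 6 was the lowest WT library for 14 members, and WT 3 and WT 2 the highest for 11 and 10. These counts are a description of the libraries, and members that share a library are not independent.

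KI and KO were compared directly, which asks whether absence of GRTH and absence of its phosphorylated form differ for the Tex genes. None of the 38 members was called with all libraries (edgeR, lowest adjusted p = 0.960), where 0.0997% of all genes were called, and DESeq2 called 0 as well. At an unadjusted p under 0.05, 1 member stood out (Tex24). The log2 fold changes of KI against KO ran from -0.48 to 0.23 and lay below 0 for 31 of 38 members, with a median of -0.20 against -0.02 over all genes. Approximate 95% intervals were -0.71 to 0.10 for Tex46, -0.40 to 0.24 for Tex37, -0.71 to 0.42 for Tex28 and -0.32 to 0.22 for Tex13c2, and differences within these bounds were compatible with the libraries. Without KI 4, 0.522% of all genes were called, and 1 member among them, Tex24, while 8 members had an unadjusted p under 0.05 (Tex12, Tex13b, Tex13c3, Tex19.1, Tex24, Tex29, Tex46 and Tex50). The log2 fold changes then ran from -0.72 to 0.28 and lay below 0 for 32 of 38 members, with a median of -0.25 against -0.03 over all genes. For Tex24, CPM in WT were 21.2, 27.3 and 28.9, in KO 22.6, 26.0 and 37.1, and in KI 15.8, 16.7, 17.98, 19.4 and 19.6, apart from 33.4 CPM in the library labelled KI 4. The other KI libraries all lay below the lowest KO and WT library. Its log2 fold change against KO was -0.65 ± 0.14 (adjusted p = 0.0465) without KI 4 and -0.45 ± 0.17 (adjusted p = 0.960) with it. Against WT it was -0.56 ± 0.14 (adjusted p = 0.00546) without KI 4 and -0.36 ± 0.17 (adjusted p = 0.128) with it, the latter called with the replicate number as a block (adjusted p = 0.0938) or without WT 5. Members called in KO and not in KI, or the reverse, were thus not shown to differ between the mutants, apart from Tex24 without KI 4. That call did not hold when close pairs were also summed, where 0 members were called between KI and KO and Tex24 was not called against WT (adjusted p = 0.152). For Tex46, the interval without KI 4 was -0.85 to -0.04 (adjusted p = 0.525), which does not pass over all genes.

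Markers of cell types moved with the genotypes, and their values stand here beside the Tex genes, with the most abundant marker of each list taken over the mean of all libraries. Over all genes tested, 16.4% were called higher and 13.5% lower in KO, 16.1% and 15.4% in KI, and 14.5% and 15.8% in KI without KI 4. None of the 8 early spermatid markers stayed at or under 3 counts throughout a genotype. Crem, a transcription factor of RS, was the most abundant of them, with 376 ± 57.3 CPM in WT, while KO libraries held 248 ± 25.3 and KI libraries 227 ± 36.9 CPM. Of these markers, 2 were lower in KO (Crem and Catsper3), and 4 in KI with or without KI 4. All 9 late spermatid markers were lower in both genotypes, with a summed level of 15429 to 21302 CPM in WT, 1804 to 4560 in KO and 2396 to 3692 in KI. Prm2, a protamine, led them, at 6078 ± 804 CPM in WT and 593 ± 188 in KO. The authors state that Prm2 and Tnp2, another of the 9, are already transcribed in RS, so their RNA is not confined to later cells. KO 3 held the lowest sum of early and of late markers among KO libraries (656 and 1804 CPM), and KO 1 the highest of the early markers (1209 CPM). Leydig markers, of cells the digestion was meant to remove, were higher for 5 of 5 genes, with a summed level of 9.68 to 19.7 CPM in WT, 29.6 to 51.0 in KO and 13.2 to 65.7 in KI, and Cyp17a1 the most abundant. Of 4 endothelial markers, Vwf, the most abundant, and Tek were higher in both mutants (summed level 11.2 to 15.5 CPM in WT, 16.2 to 27.8 in KO and 19.8 to 26.5 in KI). Of 7 spermatogonium markers, Kit and Stra8 were higher in KO and Stra8 in KI, and 0 in KI without KI 4, and the highest sums were in KO 2 (70.6 CPM) and KI 4 (72.9 CPM) beside 29.4 to 39.9 CPM in WT. Of 8 spermatocyte markers, 4 were higher and 1 lower in KO, 3 higher and 2 lower in KI, and 2 higher and 2 lower in KI without KI 4. Their summed level was 483 to 688 CPM in WT, 614 to 725 in KO and 590 to 751 in KI, with Ccna1 the most abundant. Sertoli markers were at 6.35 to 12.2, 4.46 to 8.82 and 4.77 to 8.64 CPM in sum, with Wt1 the most abundant and lower in both genotypes, and Cst12 lower in KO. Of 5 macrophage markers, Csf1r was higher and C1qb lower in both genotypes, Adgre1 was the most abundant (C1qb exceeded it in WT and Csf1r in KI), and their sum was at most 11.2 CPM in any library. Of 4 red cell markers, only Hbb-bs passed the filter and it was higher in KI (adjusted p = 0.0813) and not called without KI 4, Hba-a2 and Hbb-bt stayed at or under 3 counts in WT, and the sum was at most 2.92 CPM. The part of these cell types in the results of the Tex genes was not tested.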

How the data were processed

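RNA-seq of RS from 6 WT, 6 KO and 6 KI libraries was used (Takara Pico kit, no polyA selection). After trimming by cutadapt 3.4, the authors used STAR 2.7.8a for alignment to GRCm38 and counted fragments by strand with featureCounts (Subread 2.0.1). The deposited values are raw counts, with duplicates not removed, of 54232 genes of GENCODE M18, and 54079 identifiers were paired with symbols from GENCODE M21.

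Counts were tested with edgeR 4.0.16 (R 4.3.3): TMM normalization, filterByExpr, 1 model of the 3 genotypes, glmQLFTest against no change and glmTreat (worst-case null) past 1 on the log2 scale, with Benjamini-Hochberg adjustment over all genes tested and a threshold of 0.1. KI was refitted without KI 4. Alternatives included DESeq2 1.42.0 and other filters, scalings and sample sets. FPKM were computed from normalized CPM and the deposited exon length. The pipeline was tested on simulated data.

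Members, gene lists and motifs were chosen with earlier results of these data known. Named were all members past 1 on the log2 scale, all members of the role lists, the 8 highest in WT, the 5 largest rises and falls in each genotype and any member called between KI and KO. Approximate 95% intervals are normal intervals from the edgeR standard error. The result of 1 gene outside the Tex members is not reported here.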

Additional observations from a re-analysis of the deposited data

Results flagged for a closer look

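Among 114 groups of 6 libraries (38 members in 3 genotypes), the gap of the highest or lowest library to the next, divided by the range, passed Dixon's 95% critical value in 3. Chance alone flags about 1 in 20 groups. Tex24 in the library labelled KI 4 stood at 33.4 CPM, with the next KI library at 19.6 CPM (ratio 0.782). Tex13c3 in KI 4 stood at 8.13 CPM, with the next at 4.69 CPM (ratio 0.676). Tex9 in KO 3 stood at 126 CPM, with the next KO library at 112 CPM (ratio 0.644). The test of KI against KO itself called Tex24 when KI 4 was left out, with a log2 fold change of -0.65 (edgeR, adjusted p = 0.0465), lower in 5 of 5 KI libraries than in every KO library. With close pairs also summed, 0 members were called. The library labelled KI 4 held Ddx25 at 56.9 CPM, inside the range of KO, and why was not tested.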

How the results depend on the processing

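With 18 libraries left out in turn, the members called higher and lower in KO numbered 5 to 7 and 10 to 12 (6 and 11 with all libraries), those in KI 3 to 5 and 12 to 17 (3 and 16), those past 1 (log2) 3 to 3 for KO and 2 to 4 for KI, and those between KI and KO 0 to 1. The 5 higher in KI came without WT 3, WT 6 or KI 5, and the 1 between KI and KO came without KI 4. With close pairs counted as 1 library each and KI 4 left out, which leaves fewer libraries, KO had 4 higher and 9 lower members and KI 1 higher and 10 lower, and for KO and KI alike 1 member passed 1 (log2), and 0 were called between KI and KO. No other setting moved a count by more than 1.5 times. With the replicate block, that is the replicate number as a term, the counts were 5 higher and 11 lower in KO and 3 higher and 17 lower in KI. The labels do not say whether the numbers pair the libraries. Of 18 same-numbered pairs, 7 correlated above 0.1 (range -0.441 to 0.481). This does not settle it, since pairs with different numbers were not compared. DESeq2 called 6 higher and 11 lower in KO and 4 and 16 in KI. The interval form of glmTreat, chosen after seeing the data, called 4 members past 1 in each genotype.

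No called member changed direction: of 424 alternative values of the 17 members called in KO, 406 kept their call and 18 lost it, and of 474 values of the 19 in KI, 437 kept it and 37 lost it. Signs turned only for members that were not called. In KO these were Tex13c1 (replicate block -0.057, close pairs -0.036), Tex13c3 (DESeq2 -0.0038, DESeq2 size factors -0.0026, no filter -0.0083, replicate block -0.0063, close pairs -0.0023) and Tex261 (DESeq2 -0.0016, DESeq2 size factors -0.00098, no filter -0.0096), and in KI Tex11 (close pairs -0.071). Leaving out a library gave ranges across 0 in KO for Tex2 (-0.015 to 0.41), Tex10 (-0.021 to 0.16), Tex13c1 (-0.25 to 0.24), Tex13c3 (-0.093 to 0.14), Tex24 (-0.0013 to 0.15), Tex33 (-0.27 to 0.16) and Tex261 (-0.028 to 0.10), and in KI for Tex2 (-0.10 to 0.14), Tex9 (-0.040 to 0.11), Tex11 (-0.067 to 0.20) and Tex29 (-0.24 to 0.031). Depth limits Tex28, at 5 to 19 counts in KI libraries. The causes were not tested.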
